A study of Mus musculus with 2 samples.

Results

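Cd7, 1 of the 13528 genes of the count table, was followed in 11929 liver immune cells across cell types, clusters and libraries, and cell by cell against Cd8b1 and Cd160. It was chosen for its high level in the hepatic CD8αα T cells of this study, which picked it on these same libraries, so that its levels are given as a description and carry no test. Cd7 encodes a single-pass receptor of the immunoglobulin superfamily found on T cells, NK cells and their precursors. Its known ligands are the Sectm1 proteins, and on human T cells galectin-1, and its cytoplasmic tail binds phosphatidylinositol 3-kinase. CD7 is best known as an early marker of the T lineage that is lost on some memory T cells and on many T cell lymphomas.

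CD45+ cells from the livers of C57BL/6 mice, given as 10 weeks old in the labels, were tagged with 49 antibody oligonucleotides and captured in microwells in 2 pooled libraries. The first pool joined dnTGFβRII mice (TG), which express a dominant-negative TGF-β receptor II from the mouse Cd4 promoter and develop cholangitis, with IFN-γ ARE-Del-/- mice. The second joined wild type mice (WT) with P40-/-IL-2Ra-/- mice. Only the TG and the WT cells carry a genotype name and a cell type in the deposited cell table, 4647 from the first library and 7282 from the second, so each genotype has 1 library, genotype and capture cannot be told apart, and no test of genotype is possible. The number of mice behind each pool is not given in the sources used here, and the study's methods give the mice as somewhat younger than the labels do.

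Median depth was 3298 unique molecular identifiers (UMIs) per cell in TG and 2654 in WT. Levels are the Cd7 UMIs of a set of cells per 1000000 of its UMIs (CPM), with exact 95% Poisson intervals. All intervals given here for levels and ratios cover counting error only, and not the spread between cells or between mice. All cells held at least 1000 UMIs, and shares of cells with a Cd7 UMI are given as counted and after each cell was thinned to 1000 UMIs. Both libraries used some of the same cell numbers, 267 among all called cells and 36 among the cells with a genotype name.

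The gene lies on the minus strand of mouse chromosome 11 (build GRCm38), at 121036747 to 121039418, as 1 protein-coding gene whose full transcript has 4 exons. Its coding part, from 121037043 to 121039365 on the same build, is 633 bases long and encodes 210 residues. Its first 300 spliced bases, from 121039365 down to 121038124, are shown 5′ to 3′ from the GENCODE transcript because this is the gene measured, with the start codon in capitals.
Cd7: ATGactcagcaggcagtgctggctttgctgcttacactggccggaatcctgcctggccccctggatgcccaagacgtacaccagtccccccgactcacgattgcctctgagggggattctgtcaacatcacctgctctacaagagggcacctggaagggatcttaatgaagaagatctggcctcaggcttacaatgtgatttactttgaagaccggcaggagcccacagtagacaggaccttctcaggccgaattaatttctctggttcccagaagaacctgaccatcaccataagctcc
The antisense gene Gm11775 (121029402 to 121052357, plus strand) spans the whole of Cd7. Gm11775 has no row in the table, and whether the reads were counted by strand is not given in the sources used here. It is therefore not known whether reads from Gm11775 entered the Cd7 counts. The genes of the ligands Sectm1b and Sectm1a lie on the same chromosome from 121053458 and 121067407 and have no row in the filtered table either.

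Cell type and cluster names are those of the authors' cell table, which holds 30 clusters. Cluster 2, the only cluster named CD8αα, met its markers, with Cd3e at 1747 (TG) and 1471 CPM (WT), Cd8a at 984 and 1104 CPM, and Cd8b1 at 35.5 (TG) and 40 CPM (WT). In WT it also held Trdc, the constant region of the T cell receptor δ chain, at 855 CPM against 95.1 CPM in TG, and a Trdc UMI was seen in 82 of its 194 WT cells and in 20 of its 410 TG cells. Clusters 3, 8 and 11 are all named NK. In WT their Cd3e stood at 122, 67.5 and 130 CPM, but in TG cluster 3 was at 1608 CPM and cluster 11 at 1401 CPM, the level of T cells, with Cd4 at 546 and 227 CPM. For that reason these clusters are referred to by number. Cluster 17, named mature B, carried Cd3e at 728 (TG) and 609 CPM (WT) beside Cd79a at 2456 and 1954 CPM. Cluster 7, named CD8αβ, had the lowest Cd8b1 of the CD8αβ clusters, at 413 (TG) and 443 CPM (WT). Beside it stood Cd4 at 249 and 165 CPM and Klrb1c at 217 and 145 CPM. A Cd8b1 UMI was seen in 113 of its TG cells and not in 206, and in 43 of its WT cells and not in 89. The name CD8αβ is therefore less sure for cluster 7. The haemoglobin transcript Hbb-bs reached 1351 CPM in WT cluster 2 and 864 CPM in WT cluster 3 against 0.755 and 1.27 CPM in TG, and its part in the Cd7 levels was not tested. The hepatocyte transcript Alb was at no more than 32.2 CPM in any cluster.

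Cd7 was highest in CD8αα T cells in both libraries and, among clusters of at least 20 cells, the highest stood 156-fold above the lowest in TG and 227-fold in WT. Cluster 29, with 11 TG and 10 WT cells, had 0 Cd7 UMIs, which allows a level of up to 70.9 and 93.8 CPM (3 counts). Cluster 2 stood at 5577 CPM in TG (5450 to 5706; 410 cells) and at 4920 CPM in WT (4736 to 5109; 194 cells). Cluster 3 followed, at 4119 (TG) and 4198 CPM (WT). These 2 clusters made up 14.5% of the TG cells and 6.87% of the WT cells, and they held 57.5% and 50.5% of all Cd7 UMIs. A Cd7 UMI was counted in 99.8% and 99.5% of the CD8αα T cells, and after thinning in 97.6% and 96.4%. As the background, mature B cells of cluster 1, which should lack the transcript, showed it in 12.2% of cells in TG and 4.44% in WT at median depths of 2898 and 1978 UMIs, and in 3.50% and 2.71% after thinning. Their level was 45.6 (TG) and 22.95 CPM (WT).

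The other T and NK lymphocytes lay between these extremes. By name, NK cells were at 2161 (TG) and 2480 CPM (WT). CD8αβ T cells were at 710 CPM (688 to 733; 1020 cells) in TG and at 522 CPM (496 to 548; 819 cells) in WT. NKT cells, which recognise lipids through an invariant receptor, were at 469.6 and 194 CPM. CD4 T cells were lowest among the T cells, at 251 and 145 CPM. γδ T cells stood at 289 CPM in TG, where only 17 cells were named, and at 678 CPM in WT with 192 cells. CD8αα, CD8αβ and NK cells together held 86.9% of the Cd7 UMIs in TG and 67.5% in WT.

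**Figure D1:**
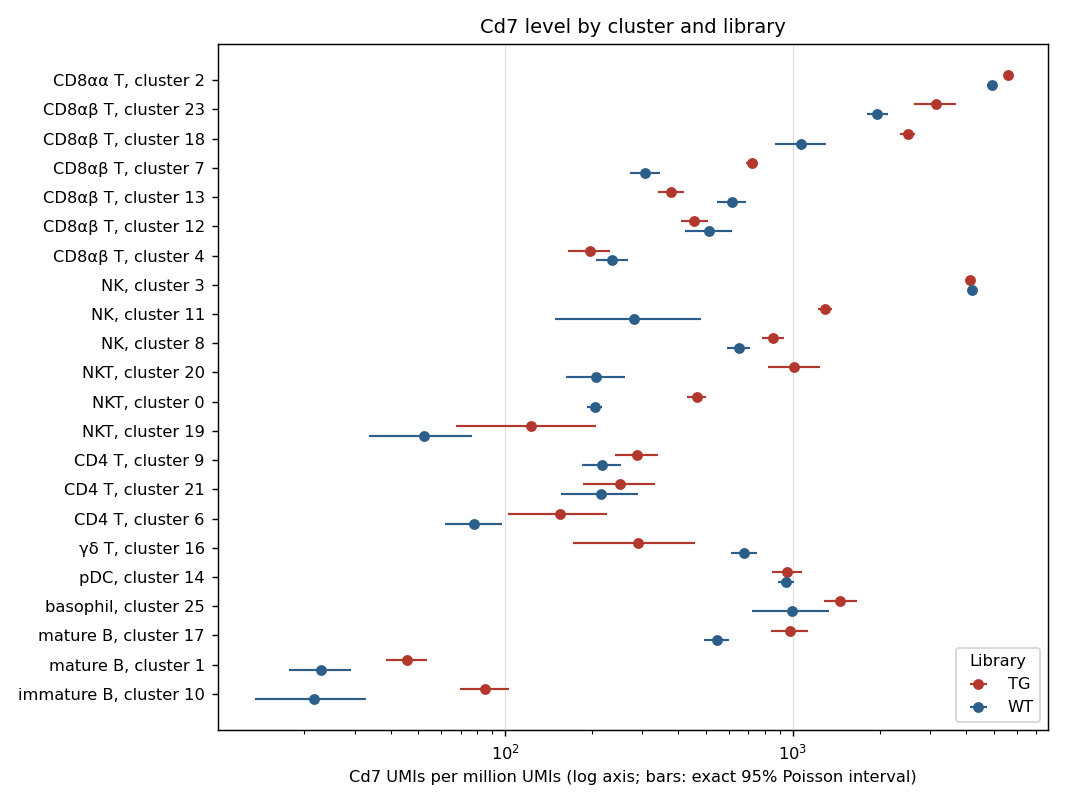
Cd7 level of each cluster of lymphocytes, plasmacytoid dendritic cells (pDC) and basophils with at least 15 cells in both libraries, in CPM on a log axis, for TG (red) and WT (blue), with exact 95% Poisson intervals as bars. Clusters 2 and 3 lie at 4119 to 5577 CPM in both libraries, the other T, NKT and NK clusters spread from 52.1 to 3127 CPM, and mature B cells of cluster 1 lie at 45.6 and 22.95 CPM.

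Among the 25 clusters with at least 20 cells in each library, the first 3 levels of either library were each apart from the next. In TG cluster 2 was above cluster 3 by 0.44 on the log2 scale (0.38 to 0.50), and cluster 3 above CD8αβ cluster 18 by 0.72 (0.62 to 0.82). In WT cluster 2 was above cluster 3 by 0.23 (0.16 to 0.30), and cluster 3 above CD8αβ cluster 23 by 1.096 (0.97 to 1.23). Most other neighbours overlapped: in all, a cluster was apart from the next by more than counting error in 8 places in TG and in 6 places in WT. From the sixth to the eleventh WT cluster, namely γδ T cells, NK cluster 8, macrophage cluster 15, CD8αβ cluster 13, B cluster 17 and CD8αβ cluster 12, no neighbours could be separated, between 678 and 510 CPM.

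The spread between cells also differed between clusters. In cluster 2 the quartiles of the cells lay at 41.4 and 72.0 Cd7 UMIs per 10000 UMIs in TG and at 32.7 and 65.4 in WT, so that most cells were high. The variance of the thinned counts was 1.64 times their mean in TG and 1.94 times in WT, where 1 is the value for pure counting. Only 2.44% of the TG and 3.61% of the WT cells had no Cd7 UMI at 1000 UMIs, and 60.2% and 46.4% had 5 or more. CD8αβ cluster 23 was uneven: 46.7% of its 15 TG cells and 27.6% of its 76 WT cells had none at 1000 UMIs, and its variance was 4.32 and 2.80 times the mean. In the TG cells of cluster 23, 3 cells held 63.9% of the Cd7 UMIs. In CD8αβ cluster 4, whose Cd8b1 is among the highest, counts in TG varied no more than counting, at 0.994 times the mean, and 77.9% of cells had none, while in WT the variance was 1.58 times the mean and 83.7% of cells had none.

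**Figure D2:**
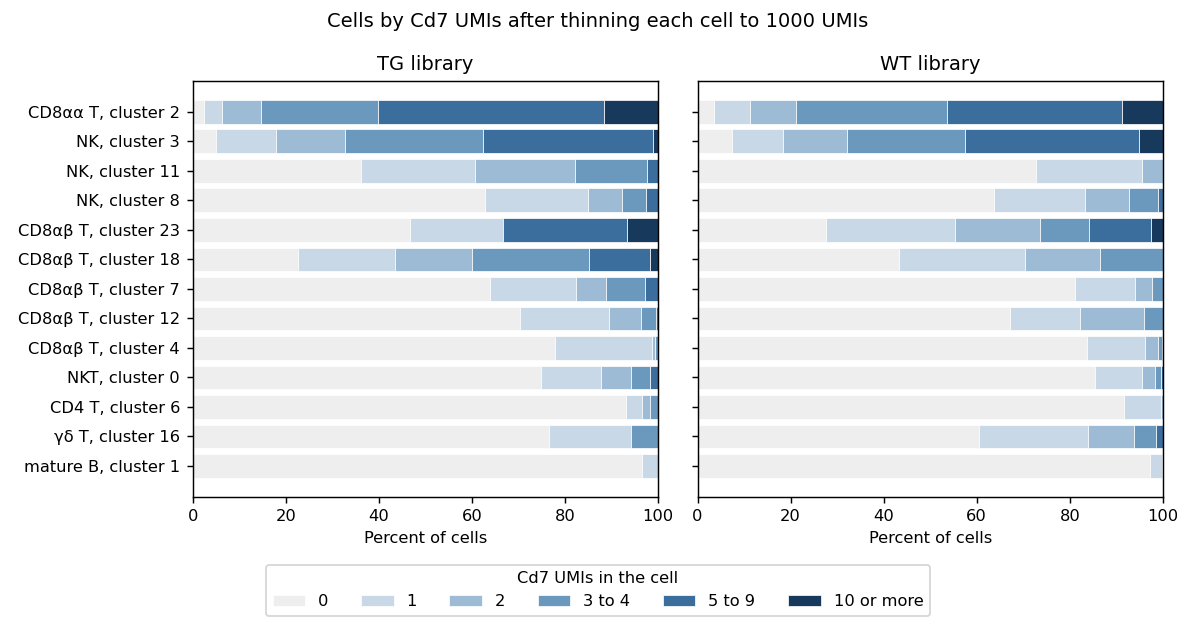
Percent of cells of each cluster by their number of Cd7 UMIs after each cell was thinned to 1000 UMIs, for TG (left) and WT (right); darker shades mark more UMIs. In clusters 2 and 3 most cells hold 3 or more UMIs in both libraries, in CD8αβ cluster 23, and in cluster 18 of TG, cells with none and cells with 5 or more stand side by side, and in B cells of cluster 1 nearly all cells hold none.

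Within the CD8 T cells, the question was how far Cd7 sets the CD8αα cells apart from the CD8αβ cells. The ratio of cluster 2 to all CD8αβ T cells was 2.97 on the log2 scale in TG (2.92 to 3.03) and 3.24 in WT (3.148 to 3.33), from 7387 against 3767 UMIs and 2706 against 1599 UMIs. Since Cd7 was picked for this contrast, and the clusters were made from the expression of these same cells, no test is attached. Of the 10051 genes counted in TG 0.468%, and of the 9183 in WT 0.523%, had a ratio as high, a standing that the choice of Cd7 for this contrast fixes. Left out of the CD8αβ cells, clusters 4 and 7 took the ratio to 2.68 and 2.32. The CD8αβ class was itself a range: cluster 23 was at 3127 CPM (TG) and 1964 CPM (WT), cluster 18 at 2504 and 1067 CPM, cluster 7 at 723 and 307 CPM, cluster 12 at 455 and 510 CPM, cluster 13 at 378 and 612 CPM, and cluster 4 at 197 and 236 CPM. No CD8αβ cluster reached the level of cluster 2 in its library.

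Within cluster 2, cells with Trdc were not the higher ones in Cd7 at full depth. In WT the 82 cells with a Trdc UMI were at 4531 CPM (4263 to 4813) and the 112 without at 5207 CPM (4958 to 5464). In TG the values were 5232 CPM in 20 cells and 5596 CPM in 390 cells, with overlapping intervals. After thinning, the log2 ratio of cells with over without Trdc was −0.16 (−0.36 to 0.04) in WT and 0.05 (−0.28 to 0.35) in TG. Elsewhere in WT the direction varied: Cd7 was 4273 CPM with and 4189 CPM without Trdc in cluster 3, 609.9 and 798 CPM in γδ cluster 16, and 435 CPM in 73 cells with Trdc against 196 CPM in 1913 without in NKT cluster 0.

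The genes known to work with CD7 were read beside it in the same contrast, over genes with at least 20 UMIs. Sectm1a and Sectm1b have no row in the filtered table, which left 7 of the 9 partners. Of the 7, 1 was at least 2-fold higher in cluster 2 than in CD8αβ T cells in either library (9.18% of all genes in TG and 10.1% in WT) and 1 in TG and 2 in WT were at least 2-fold lower (8.55% and 10.1% of all genes). The higher one was Pik3cb, a catalytic subunit of phosphatidylinositol 3-kinase at low counts, with a log2 ratio of 1.18 (0.23 to 2.09) in TG and 1.12 (−0.39 to 2.44) in WT. Pik3cd, the subunit of that kinase used most by lymphocytes, had ratios of 0.68 and 0.53, and its regulatory subunit Pik3r1 0.67 and 0.87. Lgals1, which encodes galectin-1, was the lower one in both, at 287 against 1201 CPM in TG and 349 against 784 CPM in WT. Lgals3 was level in TG, at 106 against 109 CPM, and lower in WT, at 25.5 against 79.0 CPM. The median log2 ratio of the 7 was 0.38 in TG and 0.50 in WT, beside 0.16 and 0.16 over all genes.

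CD7 is classed with the pan-T antigens, yet these were split in this contrast. Of 8 such genes, 1 was at least 2-fold higher in cluster 2 than in CD8αβ T cells and 3 were at least 2-fold lower, in each library, beside 9.18% (TG) and 10.1% (WT) of all genes higher and 8.55% and 10.1% lower, the shares that hold for the next lists too. The higher one was Cd3g. The median log2 ratio of the 8 was 0.25 in TG and −0.25 in WT, beside 0.16 and 0.16 over all genes. The lower ones were Cd5 (8.30 against 83.0 CPM in TG, 25.5 against 96.2 CPM in WT), its relative Cd6, and the costimulatory receptor Cd28 (16.6 against 126 CPM in TG, 49.1 against 210 CPM in WT). Genes of killer and innate-like lymphocytes went the way of Cd7: 14 of 18 in TG and 16 of 18 in WT were at least 2-fold higher, with medians of 1.82 and 2.83. Among them were the chemokine Xcl1 (log2 ratio 3.58 and 4.11), the granzyme gene Gzmb (2.63 and 3.95), the integrin gene Itga1 (2.71 and 3.999) and Cd160 (2.43 and 3.45). Eomes, a T-box factor of circulating NK and memory T cells, was the 1 member that was lower, at −1.42 and −1.41. Of 8 genes of naive and central T cells, 7 in TG and 8 in WT were at least 2-fold lower, S1pr1 with ratios of −3.84 and −3.40. The lists were drawn up with earlier results of these libraries known, and the study had named some of their genes from the same cells.

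Cd160 encodes a glycolipid-anchored receptor of NK cells, intestinal intraepithelial lymphocytes and some CD8 T cells. In CD8αβ T cells, those with a Cd160 UMI had 3.16 times the Cd7 level of those without in TG and 2.71 times in WT. In TG the level was 1197 CPM in 381 cells with Cd160 and 379 CPM in 639 cells without, a log2 ratio of 1.66 (1.56 to 1.76). In WT it was 1000 CPM in 158 cells and 369 CPM in 661 cells, a ratio of 1.44 (1.30 to 1.58). At 1000 UMIs per cell, where 150 TG and 55 WT cells kept a Cd160 UMI, the ratios were 1.57 (1.35 to 1.78) and 0.99 (0.56 to 1.40). Much of this lay between clusters, and summed within clusters the ratio fell to 1.03 in TG and 0.81 in WT. Spearman's rho between the thinned counts was 0.24 over 1020 TG cells and 0.14 over 819 WT cells, which all come from 1 library each and are sparse.

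Cluster by cluster and at full depth, Cd7 was higher in the cells with Cd160 in each of the 6 CD8αβ clusters of either library. The 95% interval of the ratio lay above 0 in all 6 in TG and in 4 in WT, the exceptions being cluster 4 (0.17, −0.81 to 1.00) and cluster 18 (0.62, −0.02 to 1.29). These intervals leave out the spread between cells, and TG cluster 23 set only 6 cells with Cd160 against 9 without. At 1000 UMIs per cell, where few cells kept a Cd160 UMI, the interval lay above 0 only in clusters 7, 18 and 23 of TG and cluster 13 of WT, and the direction turned in WT clusters 7 (−0.31, −3.42 to 1.65) and 23 (−0.11, −0.81 to 0.54). WT cluster 12, with 6 such cells against 67, gave no thinned ratio, and its Spearman's rho was −0.20. At full depth cluster 7, the deepest of the CD8αβ clusters, had 1004 CPM with and 449.5 CPM without Cd160 in TG, and 496 and 205 CPM in WT, where the thinned ratio rests on 9 cells with Cd160. In the CD8αα cells the relation was weak: Cd7 was 5591 CPM with Cd160 and 5426 CPM without in TG, a ratio of 0.04 (−0.08 to 0.17), and 5005 and 4413 CPM in WT, a ratio of 0.18 (0.02 to 0.35) that came to 0.05 after thinning. There 368 of 410 TG cells and 164 of 194 WT cells had a Cd160 UMI.

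Cd8b1 encodes the β chain that turns the CD8αα homodimer into the CD8αβ coreceptor. Over all CD8 T cells its cells were far lower in Cd7, at 741 CPM with and 2742 CPM without Cd8b1 in TG and at 635 and 1967 CPM in WT. That gap is the gap between the 2 named classes, and within them it shrank or turned. In CD8αβ T cells of TG, Cd7 was 655 CPM in 684 cells with Cd8b1 and 811 CPM in 336 cells without, a log2 ratio of −0.31 (−0.40 to −0.21). In WT it was 548 CPM in 576 cells with and 467 CPM in 243 cells without, a ratio of 0.23 (0.08 to 0.39). The WT direction did not hold: with every cell weighted equally the ratio was −0.15, and after thinning it was −0.29 (−0.56 to −0.01). Split by the CD8β surface protein in place of the transcript, at its median over the CD8 T cells of the library, Cd7 was lower on the high side in both libraries, at 589 against 934 CPM in TG and 373 against 727 CPM in WT. This split also sorts clusters. In WT, with the cut at 1.23, median CD8β was 1.88, 1.78 and 1.43 in clusters 4, 12 and 13. It was 0.59, 0.86 and 0.90 in clusters 7, 18 and 23. In TG, with the cut at 0.87, cluster 7 was at 0.57. No ratio within clusters is given for the protein.

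The relation to Cd8b1 differed between CD8αβ clusters at full depth. In cluster 13 Cd7 was lower in cells with Cd8b1 in both libraries, at 337 CPM in 164 cells against 1038 CPM in 13 cells in TG and at 401 CPM in 79 cells against 1044 CPM in 59 cells in WT. In cluster 18 it was higher, at 2741 CPM in 96 cells against 1165 CPM in 19 cells in TG and at 1214 CPM in 20 cells against 816 CPM in 17 cells in WT, though the WT interval held 0 and after thinning the ratios were −0.12 (−0.47 to 0.23) in TG and −0.16 (−1.27 to 0.86) in WT. In cluster 13 the thinned ratios stayed below 0, at −0.89 (−1.59 to −0.19) and −1.95 (−2.92 to −1.10). Cluster 7, with 206 of the 336 TG cells without Cd8b1, had −0.69 (−0.84 to −0.53) in TG. Its thinned TG ratio was −0.67 (−1.26 to −0.13), and its WT ratio 0.34 (−0.02 to 0.69). WT clusters 23 and 12 were above 0, at 1.15 (0.74 to 1.59) and 1.04 (0.11 to 2.15). WT cluster 4 was below, at −0.74 (−1.25 to −0.20). In these WT clusters the thinned intervals held 0. In TG clusters 4 and 12 the full-depth intervals held 0. In CD8αα cells a Cd8b1 UMI was seen in 19 TG and 13 WT cells. Cd7 there was 4595 CPM against 5637 CPM without Cd8b1 in TG and 4846 against 4926 CPM in WT, so the cells of cluster 2 with Cd8b1 still stood above every CD8αβ cluster.

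Set side by side, Cd160 separated the levels in CD8αβ T cells more than Cd8b1 did. In TG, cells with neither transcript were at 489 CPM and cells with Cd8b1 alone at 326 CPM, while cells with Cd160 were at 1207 CPM without and 1190 CPM with Cd8b1. In WT the 4 values were 341, 382, 836 and 1086 CPM in the same order. Over all CD8 T cells with Cd160, which takes in both named classes, Cd7 was far lower in those with Cd8b1. It was 1369 against 3767 CPM without Cd8b1 in TG, and 1375 against 3457 CPM in WT. Of the cells with both transcripts, 35.8% in TG and 42.3% in WT belonged to clusters 18 and 23.

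**Figure D3:**
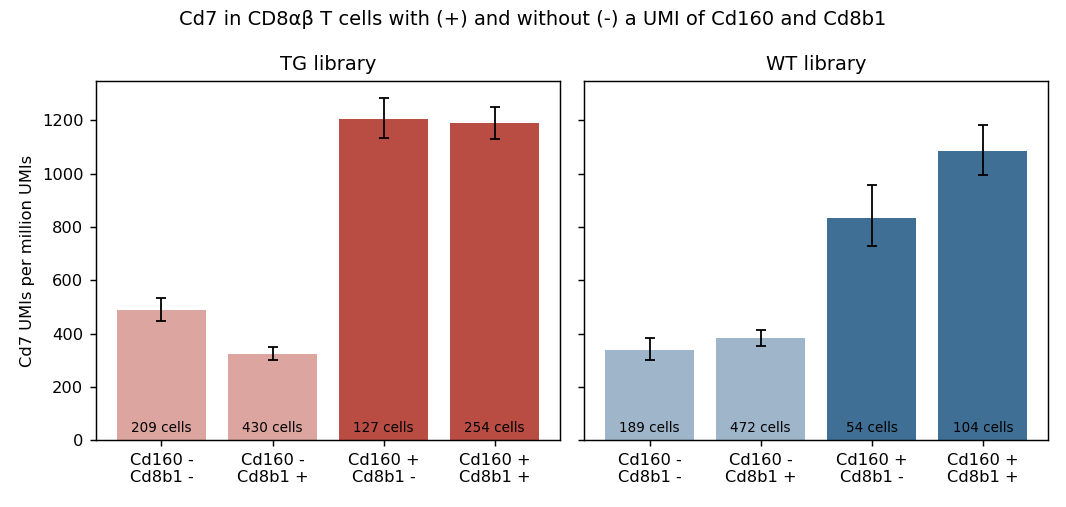
Cd7 level, in CPM, in CD8αβ T cells of TG (left) and WT (right) grouped by whether a cell held a UMI of Cd160 and of Cd8b1; bars start at 0 and error bars are exact 95% Poisson intervals. The pair of bars with Cd160 stands at 836 to 1207 CPM and the pair without at 326 to 489 CPM, whereas Cd8b1 goes with a lower bar in TG cells without Cd160 and a higher one in WT cells with Cd160.

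The other genes that went with Cd7 in single CD8αβ T cells were read at the thinned depth, in 367 TG cells with a Cd7 UMI against 653 without, and 233 WT cells against 586. This contrast was added after the levels had been seen. It pools all CD8αβ clusters, which differ in Cd7, and no ratios within clusters are given for it. Differences between clusters therefore enter these ratios and counts. At least 2-fold higher in the cells with Cd7 were 6 of 17 counted killer and innate-like genes in TG, beside 2.97% of all genes, and 10 of 16 in WT, beside 4.5%. Their medians were 0.66 and 1.19, against 0.07 and 0.07 over all genes. Cd160 headed the 2676 genes ranked by the smaller of both ratios, at 327 against 116 CPM in TG and 155 against 49.5 CPM in WT. It had been set beforehand as a gene to read against Cd7, with earlier results of these libraries known. Its place therefore carries no weight as a finding, and it is also a member of the killer and innate-like list. Next came the T cell receptor gene Tcrg-C2, Fgl2, Klrb1c (NK1.1), Xcl1 and the chemokine receptor gene Cxcr6, each at least 2-fold higher in both. Of the 8 naive and central T cell genes none was 2-fold lower in TG (1.85% of all genes) and 1, Ccr7, was in WT (3.5%), with medians of −0.52 and −0.42. S1pr1, the receptor with which lymphocytes leave tissues, had a log2 ratio of −0.87 in each, at 84.5 against 155 CPM and 107 against 196 CPM. None of the 8 pan-T antigens reached 2-fold in either direction, and of the 6 partners counted only Lgals3 did, at 1.04 in WT.

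Among cells named NK, Cd7 divided cluster 3 from cluster 8 in both libraries. Cluster 3 was at 4119 CPM in 263 TG cells and at 4198 CPM in 306 WT cells, and cluster 8 at 853 CPM in 153 and at 648 CPM in 287 cells. The log2 ratio was 2.27 (2.13 to 2.41) in TG and 2.70 (2.56 to 2.84) in WT. Itga1, which marks tissue-resident innate lymphocytes of the liver as the integrin CD49a, ran with it, at 516 against 28.3 CPM in TG and 492 against 5.51 CPM in WT. Eomes ran against it, at 51.9 against 391 CPM and 28.8 against 692 CPM. Klrb1c, the gene of the NK1.1 antigen, was nearly level, with ratios of −0.15 and 0.00. In all, 5 of 18 killer and innate-like genes in TG (8.01% of all genes) and 6 of 17 in WT (7.45%) were at least 2-fold higher in cluster 3, and 2 (3.81%) and 1 (4.5%) at least 2-fold lower. Of the pan-T antigens 5 of 7 in TG and 2 of 6 in WT were at least 2-fold higher and 1 in WT was lower, in TG with Cd3e at 1608 against 133 CPM. Of the 7 CD7 partners counted, 1 was at least 2-fold higher and 2 lower in TG, and 1 was lower in WT. Of the 7 naive and central T cell genes counted, 2 were higher and 2 lower in TG, and 1 was higher and 5 lower in WT. Lgals1 was lower in both, with ratios of −1.91 and −1.49, Pik3cb lower in TG (−2.60) and Lgals3 higher in TG (2.09).

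In WT cluster 3 was high without Cd3e: 268 of its 306 WT cells had no Cd3e UMI and stood at 4402 CPM (4247 to 4561). In TG 236 of 263 cells had a Cd3e UMI, at 4190 CPM, and the 27 without were at 3535 CPM. Cluster 11, with 343 TG cells and only 22 WT cells, was at 1292 (TG) and 281 CPM (WT), and is mostly of 1 library. Cells with Cd160 among cluster 8 reached 2059 CPM in TG against 476 CPM without, and 937 against 573 CPM in WT. In TG cluster 8, 3 cells held 23.9% of the Cd7 UMIs. Its 34 TG cells with a Cd3e UMI were at 1570 CPM and its 119 without at 612 CPM, beside 702 and 639 CPM in WT. In cluster 3 the gap by Cd160 was small in TG (4344 against 3537 CPM) and none was seen in WT (4194 against 4204 CPM). Among NKT cells those with Cd160 were at 633 against 310 CPM in TG and 251 against 150 CPM in WT.

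Between TG and WT, Cd7 was compared within named classes and clusters, 1 library against 1. Of the 17 T, NKT and NK clusters with at least 10 cells in both, 11 were higher in TG by more than counting error, 2 were lower and 4 overlapped. Among the clusters of other cells, B clusters 1, 10 and 17, macrophage cluster 15 and basophil cluster 25 were also higher in TG, and none was lower. A higher level in TG was thus not particular to the T, NKT and NK clusters. Among the T, NKT and NK classes, NKT cells had the highest ratio of TG over WT, a log2 ratio of 1.28 (1.15 to 1.41). Their level was 469.6 CPM in 446 TG cells and 194 CPM in 2232 WT cells, and all 3 NKT clusters went the same way. Cluster 0 differed in markers, with Zbtb16 at 42.3 (TG) and 104 CPM (WT), Klrb1c at 469 and 826 CPM and Cd4 at 641 and 161 CPM. In TG clusters 19 and 20, of 20 and 23 cells, 3 cells held 71.4% and 57.0% of the Cd7 UMIs. The NKT ratio may therefore not set like cells against like. CD8αβ T cells had a ratio of 0.45 (0.36 to 0.53), CD4 T cells 0.79 (0.52 to 1.05) and CD8αα T cells 0.18 (0.12 to 0.24). The CD8αα cells differed in makeup, with a Trdc UMI in 20 of 410 TG cells and 82 of 194 WT cells. Those without Trdc stood closer, at 5596 (TG) and 5207 CPM (WT). Mature B cells of cluster 1, which stand for background, were also higher in TG, by 0.99 (0.56 to 1.44) but at 45.6 and 22.95 CPM. The gaps between TG and WT were 276 CPM in NKT cells and 106 CPM in CD4 T cells, against 22.6 CPM in those B cells. Immature B cells had a larger gap, 63.5 CPM, at 85.1 (TG) and 21.6 CPM (WT). Their ratio was 1.98 (1.30 to 2.71), and 3 of their TG cells held 51.0% of the Cd7 UMIs. The part of free RNA in these gaps was not tested.

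The 2 clusters that were lower in TG were CD8αβ cluster 13, at 378 against 612 CPM (−0.70, −0.92 to −0.47), and γδ cluster 16, at 289 CPM in 17 cells against 678 CPM in 192 cells (−1.23, −2.00 to −0.55). In cluster 13 a Cd8b1 UMI was seen in 164 TG cells and not in 13, and in 79 WT cells and not in 59. With Cd8b1 its Cd7 was 337 CPM (301 to 377) in TG and 401 CPM (335 to 476) in WT. Without Cd8b1 it was 1038 and 1044 CPM. The ratio of cluster 13 may therefore not set like cells against like. CD8αβ clusters 7, 18 and 23 were higher in TG, at ratios of 1.24 (1.05 to 1.42), 1.23 (0.93 to 1.55) and 0.67 (0.40 to 0.94), while clusters 4 and 12 overlapped. Cluster 18 differed in markers, with Cd8a at 2166 (TG) and 1010 CPM (WT), Cd160 at 778 and 326 CPM and Eomes at 4.86 and 168 CPM. Cluster 7 differed in median surface CD49a, at 1.92 (TG) and 0.485 (WT). In cells named NK the ratio was −0.20 (−0.26 to −0.14), but with the same cluster makeup in both libraries it was 0.19, and clusters 3, 8 and 11 had ratios of −0.03 (−0.10 to 0.04), 0.40 (0.21 to 0.58) and 2.20 (1.42 to 3.12). Clusters 3 and 11 bore Cd3e in TG and little in WT, as given above, so these ratios and the 0.19 do not set like cells against like. Median depth was higher in TG than in WT in each of these classes, for example 4557 against 2996 UMIs in CD8αβ T cells.

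Likeness of pattern was measured as Pearson's r with Cd7 of log2(CPM + 10) over the 25 clusters of at least 20 cells in each library, for 8090 genes with at least 200 UMIs in both, taking the smaller r of both. Clusters of 1 library share its depth and its free RNA, so r is descriptive. Among the 10 most alike were Atp2b4 (0.79 in TG, 0.76 in WT), a plasma membrane calcium pump, Ptpn4 (0.73, 0.81), Cst7 (0.73, 0.74), an inhibitor of lysosomal cysteine proteases, Padi2 (0.87, 0.73), Baiap3 (0.73, 0.74), Cracr2a (0.73, 0.82), a regulator of calcium entry, Cd200r4 (0.81, 0.70), Rgs1 (0.80, 0.70), a brake on chemokine receptor signals, and Rcn1 (0.71, 0.70). Cd160 followed in place 35 (0.71, 0.63), Gzmb in place 22 (0.70, 0.66) and the transcription factor Runx3 in place 14 (0.69, 0.69). Cd8a had 0.55 and 0.59 and Cd8b1 0.22 and 0.41. The 5 least alike were Cd81 (−0.61, −0.68), Il6ra, Sh3bp5, Ckap4 and Bcl9, of which Cd81 was at 185 and 166 CPM in B cells of cluster 1 and at 6.04 and 1.82 CPM in cluster 2.

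Limited to the T, NKT and NK clusters, 15 in TG and 17 in WT, only 3 of the 10 stayed among the most alike, so the list rests partly on the B and myeloid clusters. Over these clusters Itga1 had an r of 0.83 in TG and 0.63 in WT and Cd160 0.79 and 0.62, while Cd5 had −0.62 and −0.54 and Cd28 −0.65 and −0.56. Of the other pan-T antigens, Cd6 had −0.49 and −0.39, Cd3d −0.06 and −0.21, and Cd3g 0.29 and 0.29. Among the antibodies, mean surface CD49a went with Cd7 at 0.77 and 0.58 and CD11c at 0.70 and 0.72, and CD5 went against it at −0.68 and −0.63 and CD28 at −0.62 and −0.60. No antibody to CD7 was in the panel, so the protein was not measured. NKT cluster 19 fell outside the relation to Cd160, at 123 CPM of Cd7 in TG and 52.1 CPM in WT with Cd160 at 273 and 194 CPM, beside 253 and 240 CPM in NKT cluster 0.

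**Figure D4:**
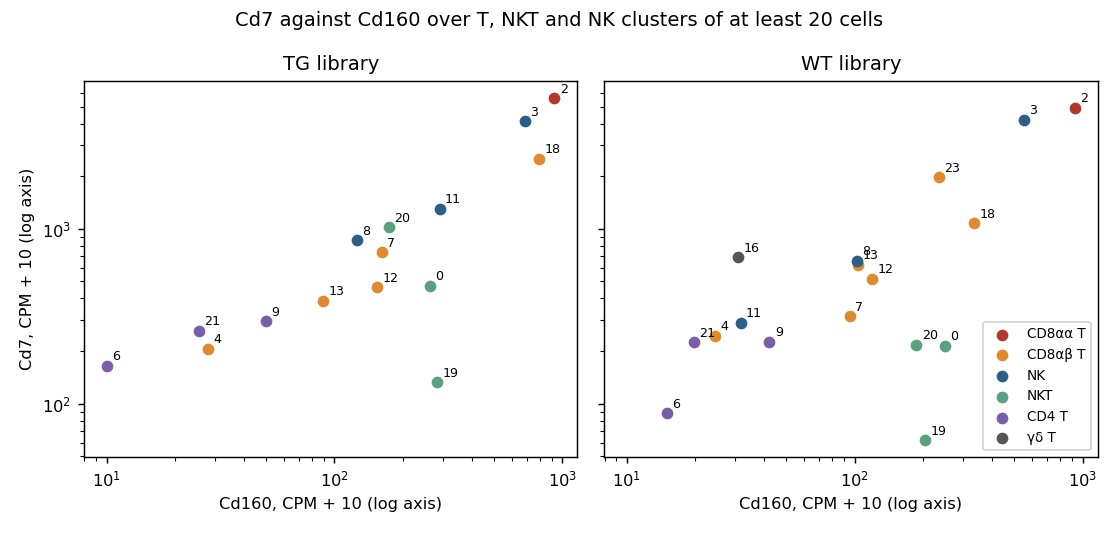
Cd7 against Cd160 in the T, NKT and NK clusters of at least 20 cells, both as CPM + 10 on log axes, for TG (left, 15 clusters) and WT (right, 17 clusters); points are clusters, numbered and coloured by cell type. Clusters 2 and 3 lie at the top right in both libraries, CD4 T cells at the lower left, and the NKT clusters lie below the other clusters of like Cd160 in WT.

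Surface proteins were also read against Cd7 within clusters. In WT cluster 2 thinned Cd7 counts fell with CD90.2 (Spearman's rho −0.43 over 194 cells) and CD5 (−0.42) and rose with CD24 (0.39) and the red cell antigen TER-119 (0.37), which stand beside the haemoglobin counts of the same cells. In TG cluster 2 the strongest values were −0.16 for CD43 and 0.11 for CD200 over 410 cells. In CD8αβ cluster 13 of WT Cd7 fell with CD5 (−0.52), CD90.2 (−0.44) and CD8β (−0.39) over 138 cells, and in cluster 7 of TG it rose with CD49a (0.30) over 319 cells. These are correlations across cells of 1 library, not across samples.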

How the data were processed

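Single-cell RNA and 49 surface antibodies were measured in liver CD45+ cells of 2 pooled BD Rhapsody libraries. The authors aligned the reads to mm10, deposited UMI counts per cell and gene without normalization, filtered the named cells to 13528 genes and 11929 cells, and deposited the clusters and cell type names of a batch-corrected integration. Percent mitochondrial values and the antibody values, on a natural log scale, were deposited by the authors already computed; the authors' normalized RNA table was not used. All Cd7 counts of the named cells were identical in the library tables and the filtered table.

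Cd7 UMIs were summed per set of cells and divided by the set's total. Intervals at 95% were exact Poisson for levels, exact conditional binomial for ratios and Clopper-Pearson for shares, and cover counting error only. With 1 library per genotype no test was run and no p-value is given; TMM factors from edgeR served as an alternative scaling only. Scrublet, at an expected rate of 5%, called 0.839% of TG and 3.31% of WT cells doublets; they were kept in the reported values. Mixed cells, which held 2 or more UMIs of B as well as of T lineage genes, made up 7.38% and 3.58%. Both kinds were removed in turn as alternatives. Genes were counted in a contrast from 20 UMIs, and a fold of 2 was called higher or lower. The genes named are Cd7, Cd8b1, Cd160, the 10 most and 5 least alike in pattern, and members of 4 lists (CD7 partners, pan-T antigens, killer and innate-like genes, naive and central T cell genes), except 1 of the most alike that is not reported here; genes named outside this rule were chosen after their values were seen, among them those that went with Cd7 in single CD8αβ T cells and the antibodies. The gene and these lists were chosen with earlier results of these data known. The scripts were tested on simulated data. Software was Python 3.11.15, scanpy 1.11.5, scipy 1.17.1, R 4.3.3 and edgeR 4.0.16; the gene model was GENCODE on GRCm38.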

Additional observations from a re-analysis of the deposited data

Results flagged for a closer look

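The log2 ratio of Cd7 in CD8αβ T cells with over without Cd8b1 was −0.31 in TG and 0.23 in WT, opposite in sign, and the difference between the libraries was not tested. The WT value turned negative under equal weight for each cell, at the thinned depth and with the surface protein, and was 0.02 within clusters. The split by protein also sorts clusters, and no ratio within clusters is given for it.

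The log2 ratio of Cd7 in TG over WT was −1.23 in γδ T cells, with 18 UMIs in 17 TG cells, and 1.28 in NKT cells. These go opposite ways, and the difference was not tested.

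Cells that carry no genotype name also held Cd7. In the second pool, 8512 unnamed cells with Cd3 and Cd8b1 UMIs and no Cd4 stood at 1126 CPM (1114 to 1137), against 657 CPM (626 to 688) in 753 WT cells chosen the same way, and unnamed B cells of that pool stood at 44.8 CPM.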

How the results depend on the processing

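No paired analysis was possible because each genotype has 1 library. Of 192 values under the alternatives, 138 stayed within the counting interval or, in 6 values of pattern likeness, kept 9 of the 10 genes most alike or a smaller r of Cd160 between 0.62 and 0.65, and the cause of the other changes was not tested. Among the 138, ratios near 0 changed sign in CD8αα T cells: by Cd8b1 in WT to between 0.016 and 0.048 under 4 alternatives, and by Cd160 in TG to −0.024 when thinned. The ratio of CD8αα over CD8αβ T cells was 2.86 in TG with every cell weighted equally and 2.90 when thinned; it was 2.83 in TG and 3.05 in WT without ribosomal and mitochondrial genes, 2.82 and 3.07 under TMM scaling, and 2.68 and 2.32 without clusters 4 and 7. The Cd8b1 ratio in CD8αβ T cells of TG was −0.10 with equal weight, −0.16 without ribosomal and mitochondrial genes, −0.43 when thinned and −0.66 by the protein. In WT it reversed to −0.15 with equal weight, −0.29 when thinned and −0.96 by the protein, and was 0.016 within clusters, an alternative chosen after seeing the data. In CD8αα T cells the protein gave −0.13 in TG and −0.57 in WT, the latter on 3 high cells. The Cd160 ratio in CD8αβ T cells was 1.03 in TG and 0.81 in WT within clusters, and 0.99 in WT when thinned. With the same cluster makeup in both libraries, also chosen after seeing the data, TG over WT was 0.59 in CD8αβ and 0.51 in CD4 T cells, and NK cells reversed to 0.19.

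Without ribosomal and mitochondrial genes, which raises all levels by construction, Cd7 stood in TG and WT at 6502 and 5779 CPM in CD8αα, 912 and 700.1 CPM in CD8αβ, 320.0 and 199 CPM in CD4, 584 and 243 CPM in NKT, and 2534 and 2900.2 CPM in NK cells, and at 864 CPM in WT γδ T cells. TMM scaling gave 5339 and 4688 CPM in CD8αα and 757 and 558 CPM in CD8αβ T cells. Equal weight gave 779 CPM in TG CD8αβ T cells, and without doublets WT NK cells stood at 2579 CPM. Thinning lowered the share of cells with a Cd7 UMI, as fewer UMIs must, to 97.6% and 96.4% in CD8αα, 36.0% and 28.4% in CD8αβ, 17.2% and 11.6% in CD4, 25.3% and 13.8% in NKT, and 69.3% and 63.9% in NK cells, and to 39.6% in WT γδ T cells. Of the 10 genes most alike, 3 remained over the T, NKT and NK clusters and 4 over cell types. Counts were low in WT cluster 11 (13 UMIs), TG cluster 19 (14) and the TG γδ T cells (18).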

Other observations

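Cd7 was also counted outside lymphocytes. Plasmacytoid dendritic cells, the interferon-producing cells that share some lymphoid genes, stood at 955 CPM in 46 TG cells and 947 CPM in 219 WT cells, and basophils at 1462 CPM in 45 and 994 CPM in 16 cells. Macrophages divided by cluster: cluster 15 was at 748 and 628 CPM and cluster 22 at 53.0 and 40.7 CPM. Cluster 15 also held more Cd3e, at 208 (TG) and 89.8 CPM (WT) against 58.9 and 39.0 CPM in cluster 22. The median cell of cluster 15 had 0 Cd7 UMIs in both libraries. Monocytes were at 122 and 107 CPM and neutrophils at 35.6 and 76.2 CPM, the latter from 12 and 7 UMIs.

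In the first pool, 604 unnamed cells with Cd3 and Cd8a UMIs and neither Cd8b1 nor Cd4 stood at 3426 CPM of Cd7, beside 3251 CPM in 383 TG cells chosen the same way. In the second pool the values were 1501 CPM in 772 unnamed and 2256 CPM in 319 WT cells. Mature B cells with a Cd160 UMI were at 663 CPM in 52 TG cells and 938 CPM in 51 WT cells, against 54.3 and 72.1 CPM without. That class joins cluster 1 with the Cd3e-bearing cluster 17, which held 177 of its 320 TG and 397 of its 462 WT Cd7 UMIs and had Cd160 at 182 and 109.8 CPM, against 12.8 and 4.24 CPM in cluster 1.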
